A study of Mus musculus with 16 samples.

Results

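The metallothionein genes Mt1 and Mt2, their regulator Mtf1 and the zinc transporter genes Slc30a1, Slc39a4 and Slc30a10 were followed in the cecal epithelium of gnotobiotic mice. All probe sets annotated to these 6 genes on the Mouse 430 2.0 GeneChip were taken, which gave 13 of 45101 probe sets. The genes were chosen by an earlier result in these same data, a lower Mt1 and Mt2 signal in bi-associated than in B. thetaiotaomicron mono-associated mice, so that difference is given below as a description only.

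The mice were adult NMRI animals, male by the study's methods, reared germ-free in isolators on an autoclaved polysaccharide-rich chow, and 4 colonization states were compared. Bt/Bl mice carried both Bacteroides thetaiotaomicron, a saccharolytic gut symbiont, and Bifidobacterium longum, Bl mice carried B. longum alone and Bt mice B. thetaiotaomicron alone, each for 10 d, and GF mice stayed germ-free. Epithelium was collected by laser capture microdissection, RNA from 4 mice per state was pooled, and 2 amplifications of each pool were each hybridized to a GeneChip, giving 8 GeneChips. The duplicates therefore measured amplification and hybridization only, and every test below compared 1 pool with another rather than mice with mice.

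Metallothioneins are small cysteine-rich proteins that bind zinc and copper in the cytosol, and their transcripts rise when free zinc rises. The zinc-sensing transcription factor MTF-1, encoded by Mtf1, drives Mt1, Mt2 and Slc30a1 through short promoter motifs called metal response elements. Slc30a1 encodes ZnT1, which exports zinc across the plasma membrane, whereas Slc39a4 encodes ZIP4, which imports dietary zinc at the apical surface of enterocytes. Slc30a10 encodes a transporter of the same ZnT family that is known chiefly for exporting manganese. Glucocorticoids and oxidative stress also raise metallothionein transcripts.

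Promoter windows from RefSeq are shown for Mt1, Mt2 and Slc30a1, the members that MTF-1 is known to drive. Capitals mark matches on either strand to the core letters of the metal response element, searched as TGCACNC and TGCGCNC. Mt1 and Mt2 lie near each other in the genome, and each printed run holds the 250 bases before the annotated start and the first 30 bases after it, in build GRCm38.p6 on the plus strand (Mt1 chr8:94178839-94179118, Mt2 chr8:94172368-94172647, Slc30a1 chr1:191906531-191906810).
Mt1: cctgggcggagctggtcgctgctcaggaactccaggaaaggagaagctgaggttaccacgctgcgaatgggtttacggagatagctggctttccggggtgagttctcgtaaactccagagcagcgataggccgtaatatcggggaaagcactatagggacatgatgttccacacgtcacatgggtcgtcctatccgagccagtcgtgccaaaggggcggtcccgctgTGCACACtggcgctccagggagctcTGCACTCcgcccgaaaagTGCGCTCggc
Mt2: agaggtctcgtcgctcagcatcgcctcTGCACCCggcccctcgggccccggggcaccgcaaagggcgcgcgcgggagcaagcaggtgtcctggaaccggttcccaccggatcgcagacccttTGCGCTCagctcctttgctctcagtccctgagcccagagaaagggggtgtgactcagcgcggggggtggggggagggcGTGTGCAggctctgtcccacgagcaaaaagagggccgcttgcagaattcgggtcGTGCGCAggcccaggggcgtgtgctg
Slc30a1: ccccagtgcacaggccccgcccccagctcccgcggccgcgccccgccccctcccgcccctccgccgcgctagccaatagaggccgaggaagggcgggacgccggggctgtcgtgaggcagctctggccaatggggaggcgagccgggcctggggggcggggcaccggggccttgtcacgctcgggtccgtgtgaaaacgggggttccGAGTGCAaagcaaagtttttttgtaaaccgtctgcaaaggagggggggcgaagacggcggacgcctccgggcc

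The full windows run to 50 bases after the start, 300 bases in all. In them Mt2 held 4 matches, Mt1 held 3 and Slc30a1 held 2, of which 1 lay past the printed stretch. The Slc30a10 window held 3 matches, 2 of them overlapping on opposite strands, and the Mtf1 window held 0. Slc39a4 was not matched in the promoter table. Across all 32851 RefSeq windows, TGCACNC was found in 12.6% and TGCGCNC in 15.4%, 25.7% held at least 1 match of either, 7.11% at least 2, 1.97% at least 3 and 0.517% at least 4. These are letter matches, not binding sites.

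The GeneChip values were MAS5 signals on a linear scale, each GeneChip scaled to the same trimmed mean. Depth in the sequencing sense does not apply, and the number of GeneChips limited the precision. Defining epithelial and large bowel transcripts were bright in every pool, with Vil1 between 77623 and 106498 and Car1 between 426880.0 and 701343. Car1 was picked from a list of 5 large bowel genes, which were not all level. Aqp8 measured 10169 and 14517 in GF against 33810 to 49985 in the 6 colonized GeneChips. By the limma test described below, it was called higher in each colonized state than in GF (log2 differences 1.60 to 1.85). No other gene of the 5 was called against GF, where 0.137% to 0.197% of all tested probe sets were. The GF GeneChips stood apart from the colonized ones in some ileal transcripts. The ileal bile acid binding protein gene Fabp6 measured 68029 and 95108 in GF against 1179 to 1798 in the 6 colonized GeneChips. It was picked from a list of 11 ileal enterocyte genes, 9 of them tested. Compared with GF, limma called 4 lower for Bt/Bl, 3 for Bl, 2 for Bt, and 0 higher. The list's summed signal did not separate GF, at 860079 and 737616 against 628672 to 1069485 in the colonized GeneChips. Most of that sum came from Fabp2, at 647554 and 505160 in GF and 595950 or more in the colonized GeneChips. The sum therefore says little about the other genes. Apoa1, Apob and Enpep were, like Fabp6, higher on both GF GeneChips than on every colonized one, while Slc10a2, Apoa4 and Lct overlapped. Mttp went the other way without a call, at 99.1 and 734 in GF against 941 to 1810. The female transcript Xist measured 7541 and 11176 in Bt/Bl, 4405 and 3753 in Bl, 4908 and 5086 in Bt, and 17157 and 22762 in GF. The Y-linked Eif2s3y measured 3201 to 5657 in the colonized GeneChips and 71.3 and 614 in GF, although all mice were male by the methods. Other Y-linked genes were dimmer and less clear. Kdm5d measured 145 (Bt 9443) to 1159.5 in the colonized GeneChips and 178.5 and 301 in GF. Uty measured 57 to 2033 in the colonized GeneChips and 831.5 and 1113 in GF. The immunoglobulin gene Igha measured 49896 and 34067 in Bt/Bl, 25565 and 27712 in Bl, 12171 and 13110 in Bt, and 113964 and 95694 in GF. Gapdh control probes gave a 3' over 5' signal ratio, which rises as transcripts are shortened. It was 8.93 to 17.6 in the colonized GeneChips, with 15.6 and 12.6 in Bt/Bl, and 5.66 and 7.26 in GF. The beta-actin ratio went the other way, at 21.4 to 36.3 in the colonized GeneChips and 36.9 and 38.8 in GF. Differences from GF below therefore come with a pool that differed in tissue transcripts, sex transcripts and these ratios as well. Bt/Bl likewise differed from Bl and Bt in Xist and Igha. The part of any of these in the results was not tested.

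Mt2 had the lowest signal of the 4 states in the bi-associated pool. Its probe set measured 8419 and 7758 in Bt/Bl, 14431 and 17314 in Bl, 34725 and 26893 in Bt, and 23909 and 25204 in GF. No 2 states overlapped, and the order from high to low was Bt, GF, Bl and Bt/Bl. The mean was 8089 ± 467 in Bt/Bl, 15873 ± 2039 in Bl, 30809 ± 5538 in Bt and 24557 ± 916 in GF (SD, n = 2 GeneChips each).

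Mt1 was also lowest in Bt/Bl and highest in Bt. Its bright probe set measured 29051 and 37512 in Bt/Bl, 82218 and 51466 in Bl, 147302 and 105815 in Bt, and 47619.7 and 61014.5 in GF. The Bl and GF values overlapped, while all other states were separate. The mean was 33281 ± 5983 in Bt/Bl, 66842 ± 21745 in Bl, 126558 ± 29336 in Bt and 54317 ± 9472 in GF (SD, n = 2 GeneChips each). The suffix of this probe set means that its probes can match more than 1 transcript, so a contribution of a related metallothionein is uncertain. A second Mt1 probe set was dim, from 68.6 to 817, with 2 of 8 GeneChips under the floor set for low signals, and its duplicates differed up to 8.17-fold.

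**Figure D1:**
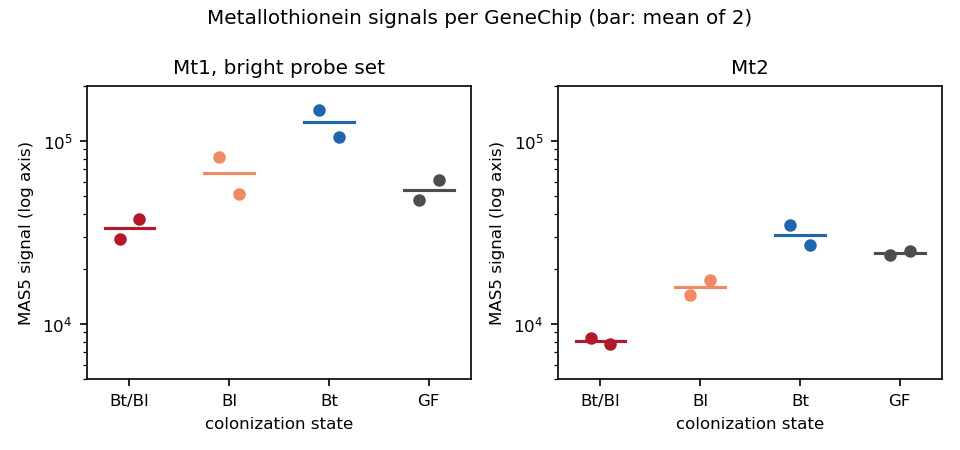
MAS5 signal (log axis) of the bright Mt1 probe set and of Mt2 on each GeneChip of the Bt/Bl, Bl, Bt and GF pools; points are single GeneChips and bars the mean of 2. Both genes are lowest in Bt/Bl and highest in Bt, and Mt2 lies at 8419 and 7758 in Bt/Bl against 23909 and 25204 in GF.

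The difference by which the genes were selected was alike in size for both. On the log2 scale Mt1 differed by -1.92 (SE 0.27) and Mt2 by -1.92 (SE 0.22) between Bt/Bl and Bt, each a 3.78-fold lower signal in Bt/Bl. Of all tested probe sets 0.0483% passed the threshold of this report (limma, Benjamini-Hochberg adjusted p under 0.05) in that comparison, and nothing is read from it here because it chose the genes. The dim Mt1 probe set gave 0.94 (SE 0.96), the opposite sign with an error as large as the value.

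The comparison with GF asked how each colonization changed zinc handling transcripts relative to the germ-free epithelium. Of the 13 member probe sets, 11 passed the filter on low values and were tested together with all other probe sets, 24865 in all. Between Bt/Bl and GF, 1 of the 11 was called, which was Mt2, 3.04-fold lower in Bt/Bl (log2 difference -1.60, SE 0.22, limma adjusted p = 0.0044), where 0.197% of all tested probe sets were called. Mt1 had a log2 difference of -0.71 in the same comparison (SE 0.27) and did not pass (adjusted p = 0.54). The Bt/Bl GeneChips entered the selecting difference too, so this call is not independent of the choice of Mt2. The fold change and signal criteria of the study's methods were also taken, in either direction (fold change above 2 by its 90% bound and a signal difference above 10). By these Mt2 passed as well, as did 1.27% of all tested probe sets. The bound here came from the limma fit of MAS5 signals, not from the study's own software. The methods' other criteria, on present calls and replicate variation, were not applied.

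The Mt2 call depended on single GeneChips. It held when Bt 9443 or Bl 9134 was left out and was lost when any 1 of the other 6 was left out, namely GF 9128, GF 9129, Bt 9130, Bt/Bl 9132, Bt/Bl 9133 or Bl 9135 (adjusted p from 0.034 to 0.19 over the 8 fits), while the log2 difference stayed between -1.66 and -1.54. It was also lost without the filter (adjusted p = 0.18), with median scaling (0.14), without the intensity trend (0.35) and with only the GeneChips compared (0.088), and adjusted p ran from 0.0025 to 0.35 over all 16 alternatives.

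In each mono-association, no member probe set was called against GF by limma. Between Bt and GF, 0 of 11 were called where 0.169% of all tested probe sets were. An unadjusted p under 0.05 was reached by 2359 of all 24865 tested probe sets and by 1 of the 11. This was Mt1, with a log2 difference of 1.21 (SE 0.27, 2.32-fold, adjusted p = 0.14). For Mt2 it was 0.32 (SE 0.22), with both Bt GeneChips above both GF GeneChips (adjusted p = 0.72). Between Bl and GF, the only comparison that shares no GeneChip with the selecting one, 0 of 11 were called where 0.137% of all tested probe sets were. There 2913 of all 24865 tested probe sets reached an unadjusted p under 0.05, and 1 of the 11 did. This was Mt2, with a difference of -0.64 (SE 0.22, adjusted p = 0.27). Mt1 differed by 0.27 (SE 0.27) there, a sign that turned with median scaling (-0.074) and without Bl 9134 (-0.067).

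The differences between the Bl pool and the other colonized pools leave out the GF GeneChips, but they add up to the selecting difference between Bt/Bl and Bt. Those of Mt1 and Mt2 are therefore not independent of the choice of these genes. Between Bl and Bt the log2 difference was -0.94 in Mt1 (SE 0.27, adjusted p = 0.18) and -0.95 in Mt2 (SE 0.22, adjusted p = 0.14). Between Bt/Bl and Bl it was -0.98 in Mt1 (SE 0.27, adjusted p = 0.19) and -0.97 in Mt2 (SE 0.22, adjusted p = 0.12). Thus 0 of 11 member probe sets were called in either comparison, where 0.0442% (Bl against Bt) and 0.0563% (Bt/Bl against Bl) of all tested probe sets were. An unadjusted p under 0.05 was reached by 2956 and 2926 of all 24865 tested probe sets, and by 3 of the 11 in each. The other one beside Mt1 and Mt2 was an Mtf1 probe set described below.

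The response to both species can be set against the sum of the separate responses. The Bt/Bl response minus that sum was -2.19 on the log2 scale for Mt1 (SE 0.38) and -1.28 for Mt2 (SE 0.32). These values contain the selecting difference and carry no test. With median scaling they were -1.69 for Mt1 and -0.78 for Mt2, and the dim Mt1 probe set gave -0.43. None of the 8 other member probe sets tested was called for this excess (limma, adjusted p from 0.38 to 0.86), where 0.113% of all tested probe sets were.

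**Figure D2:**
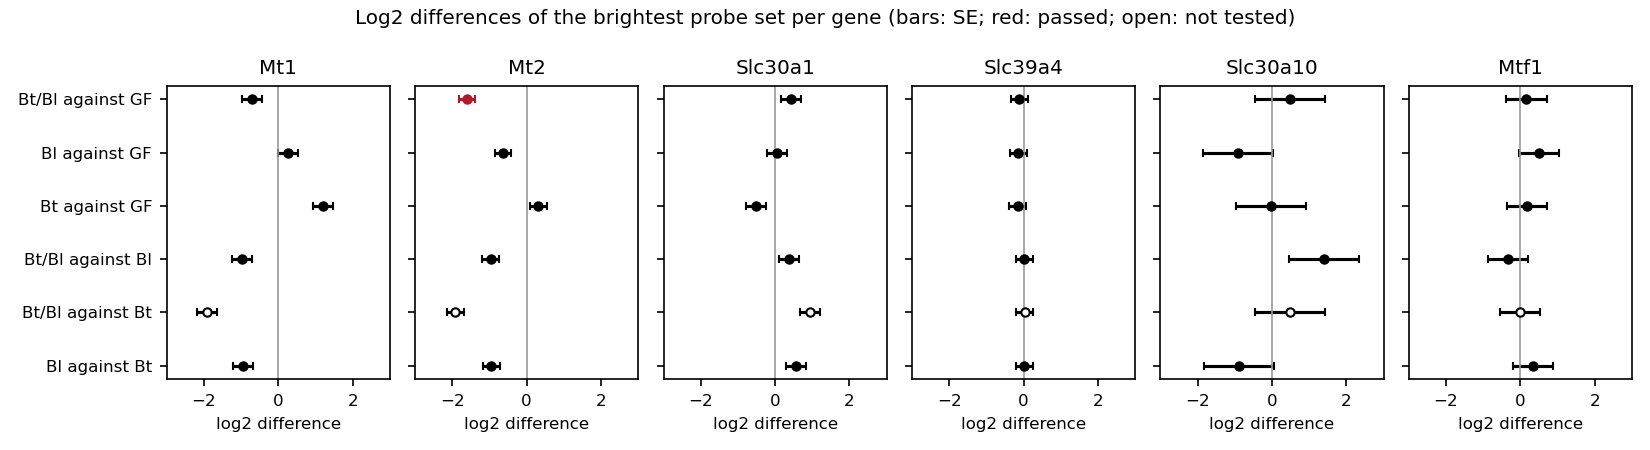
Log2 difference (x axis) of the brightest probe set of each gene in 6 comparisons (rows), from the limma fit; bars are standard errors, the red point passed the adjusted threshold and open points were not tested. The Mt2 difference between Bt/Bl and GF, -1.60, is the one red point, and Slc39a4 lies near 0 in every row.

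Slc30a1 had the reverse order of Mt2 over the 4 states, and the reverse of Mt1 at the ends only, with Bl above GF in both. No comparison of Slc30a1 passed the test. Its bright probe set measured 32492.5 and 29528 in Bt/Bl, 17796 and 32213 in Bl, 14011 and 18729.7 in Bt, and 20761 and 25477 in GF. Both Bt values were below all GF and Bt/Bl values, while the Bl duplicates spanned nearly the whole range. The mean was 31010.2 ± 2096 in Bt/Bl, 25004 ± 10194 in Bl, 16371 ± 3336 in Bt and 23119 ± 3335 in GF (SD, n = 2 GeneChips each). The log2 difference was 0.94 between Bt/Bl and Bt (SE 0.27, 1.91-fold), given without a test as for the other members, and 0.43 between Bt/Bl and GF (SE 0.27, adjusted p = 0.82). Bt differed from GF by -0.51 (SE 0.27, adjusted p = 0.60).

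The dimmer Slc30a1 probe set kept the same order at the ends. It measured 3054.5 and 3015 in Bt/Bl, 2705 and 2458 in Bl, 1819.6 and 1916 in Bt, and 1783 and 2386 in GF. The Bt/Bl and Bl values were separate from each other and above all Bt and GF values, and the Bt and GF values overlapped. No comparison of this probe set passed the test. Over the 8 GeneChips the log2 signal of the bright Slc30a1 probe set had a Pearson r of -0.89 with Mt1 and -0.70 with Mt2, Mt1 and Mt2 had 0.79 with each other, and the Slc30a1 probe sets had 0.70. The points of these correlations are 4 pools in duplicate, so they are given as descriptions.

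Slc39a4, the apical zinc importer, was nearly level across the states. It measured 16146 and 15256 in Bt/Bl, 13080.4 and 18272 in Bl, 15264 and 15353 in Bt, and 16877 and 17153 in GF. The Bl duplicates enclosed every other GeneChip. Over the 6 comparisons its log2 differences ran from -0.15 to 0.04 (SE 0.23), and the widest 95% intervals reached -0.64 and 0.52, so a change of either sign within these limits could not be told from none. The largest of these differences in size grew to 0.48 under median scaling and to 0.38 without Bl 9135.

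Slc30a10 was measured by a pair of probe sets whose values were set mainly by the Bl duplicates. The brighter one measured 1588 and 1524.5 in Bt/Bl, 193 and 1817 in Bl, 889 and 1369.6 in Bt, and 1122.5 and 1119.6 in GF. Bt/Bl lay above GF and Bt, and Bl held both the lowest and the highest value. The other measured 816 and 1465 in Bt/Bl, 365 and 1915 in Bl, 507 and 1104 in Bt, and 1516 and 1296 in GF. Its states overlapped, apart from GF, which lay above Bt. On both, the low Bl value came from GeneChip 9134. The standard errors were 0.94 and 0.90 on the log2 scale, and no comparison passed the test (adjusted p of at least 0.59).

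Mtf1, the regulator, was measured by 5 probe sets, of which 3 passed the filter. The brightest measured 2484 and 2416 in Bt/Bl, 4777 and 2012 in Bl, 1449.9 and 4184 in Bt, and 2633 and 1820.5 in GF. All 4 states overlapped their neighbours in the order of levels, and its log2 differences ran from -0.34 to 0.50 (SE 0.54). The largest difference in size ran from 0.29 (without Bl 9134) to 1.13 (without Bl 9135) when a GeneChip was left out, with 0.34 without GF 9129, 0.77 without GF 9128, 0.93 without Bt 9130 and 1.10 without Bt 9443, and it was 0.20 with median scaling.

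The next Mtf1 probe set was low in Bl alone. It measured 2045 and 1585 in Bt/Bl, 563 and 626 in Bl, 1962 and 1610.4 in Bt, and 1647 and 935 in GF. Both Bl values lay below every other GeneChip. The log2 difference was -1.58 between Bl and Bt (SE 0.66, adjusted p = 0.35) and 1.60 between Bt/Bl and Bl (SE 0.66, adjusted p = 0.35), and the brightest Mtf1 probe set had the opposite sign in both comparisons. The third ranged from 111 to 2044 with duplicates up to 9.25-fold apart, and the 2 not tested ranged from 44.6 to 2304.

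**Figure D3:**
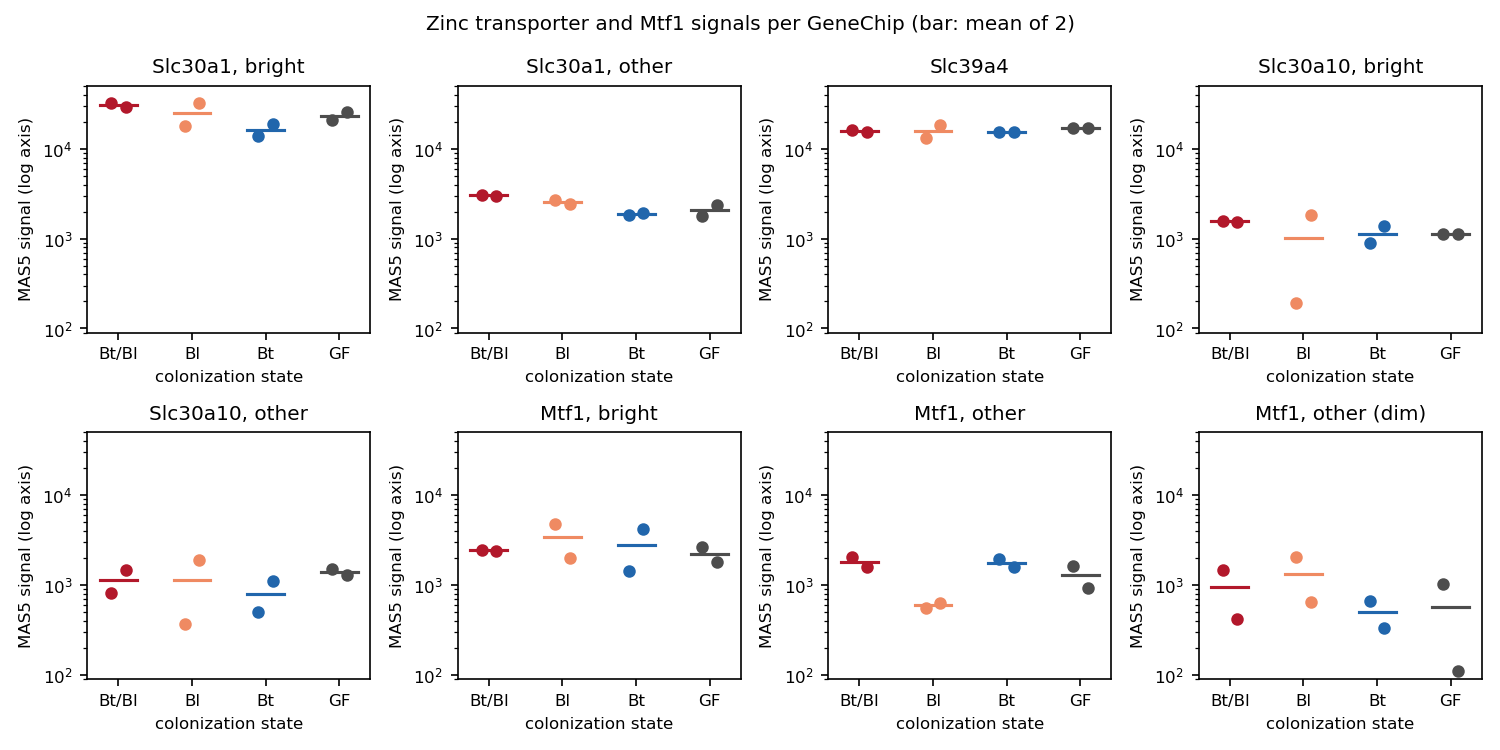
MAS5 signal (log axis) of the tested Slc30a1, Slc39a4, Slc30a10 and Mtf1 probe sets on each GeneChip of the Bt/Bl, Bl, Bt and GF pools; points are single GeneChips and bars the mean of 2. The Bl duplicates lie far apart for the brighter Slc30a10 probe set (193 and 1817), whereas Slc39a4 stays between 13080.4 and 18272 throughout.

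The wider zinc handling families were examined with 1 probe set per gene, the brightest. Of 23 other metallothionein, ZnT and ZIP genes, 19 passed the filter. By limma 0 were called in any of the 5 tested comparisons (lowest adjusted p = 0.14), where 0.0442% to 0.197% of all tested probe sets were. Shares this low leave few calls for any short list. Over the 5 comparisons, 6 of the differences had an unadjusted p under 0.05. Of all 24865 tested probe sets, 1838 to 2956 had one in each comparison. The median log2 difference of the 7 tested ZnT genes between Bt/Bl and GF was -0.01 and that of the 11 tested ZIP genes 0.23, beside 0.00294 over all genes tested. Mt4, a metallothionein of stratified epithelia, measured 1003.9 and 899 in Bt/Bl, 723 and 1165 in Bl, 285 and 268 in Bt, and 293.5 and 72.4 in GF. Its Bt/Bl and Bl values lay above all Bt and GF values, but the signals were low and the difference between Bt/Bl and GF was 2.20 with SE 0.89 (adjusted p = 0.57). Mt3 did not pass the filter. Slc30a4, which encodes the exporter ZnT4, measured 29555 and 30199.5 in Bt/Bl, 15243 and 30684 in Bl, 17579.7 and 20881.5 in Bt, and 17586 and 24009 in GF. As with Slc30a1, both Bt/Bl values were above all Bt and GF values and the lower Bl value came from GeneChip 9134, and the difference between Bt/Bl and GF was 0.54 (SE 0.29, adjusted p = 0.76).

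**Figure D4:**
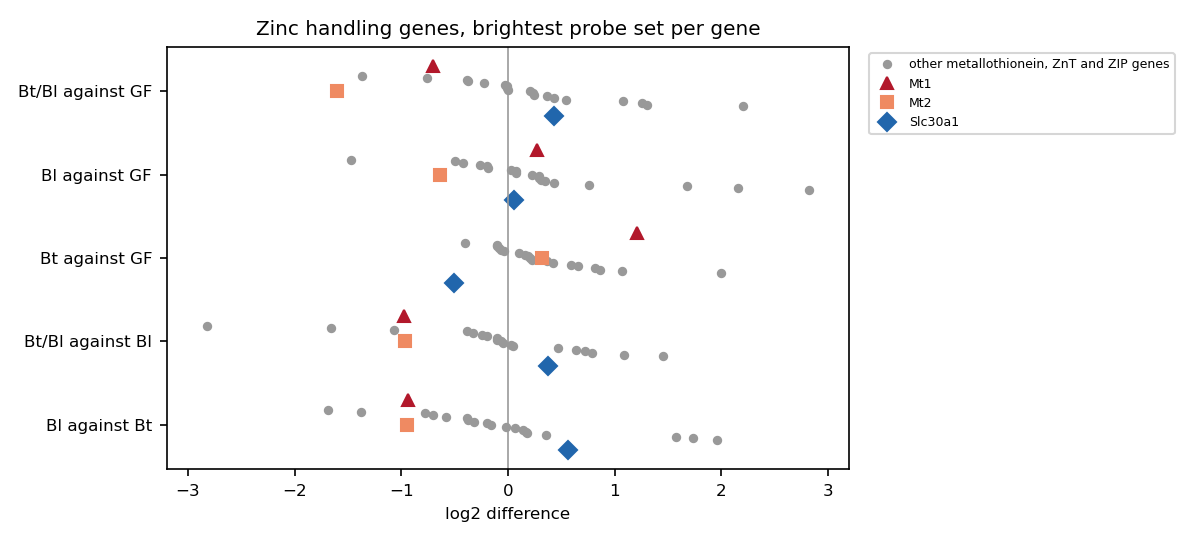
Log2 difference (x axis) of Mt1, Mt2, Slc30a1 and the 19 other tested metallothionein, ZnT and ZIP genes in 5 comparisons (rows), with the brightest probe set per gene. Mt2 is the lowest point between Bt/Bl and GF, at -1.60, and the other genes spread on both sides of 0 in every row.

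Other transcripts that share inducers with the metallothioneins were counted in the same way. Of 3 tested genes among other reported MTF-1 targets, 8 of copper handling, 8 of NRF2, the oxidative stress regulator, 7 responsive to glucocorticoids and 8 of the heat shock response, none was called in the 5 comparisons by limma. Of all tested probe sets, 0.0442% to 0.197% were called per comparison, so any list this short would hold few calls. Of 8 tested iron and manganese genes, 1 was called. This was Tfrc, the transferrin receptor through which cells take up iron, which measured 14321 and 12237 in Bt/Bl, 8252 and 25449.9 in Bl, 6415 and 8125 in Bt, and 31653 and 40151.5 in GF. Every colonized GeneChip was below both GF GeneChips, and the difference passed between Bt and GF (-2.30, SE 0.38, adjusted p = 0.014). It did not pass between Bt/Bl and GF (-1.43, SE 0.38, adjusted p = 0.28) or between Bl and GF (-1.30, SE 0.38, adjusted p = 0.20).

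Markers of other cell types moved between the pools beside the metallothioneins. The summed signal of 9 fibroblast and smooth muscle markers was 18078 and 18428 in Bt/Bl, 18355 and 14164 in Bl, 30566 and 29829 in Bt, and 35206 and 27054 in GF. The states with the higher Mt2 signal, Bt and GF, had the higher sums, with no overlap with Bt/Bl and Bl. Most of the sum came from 3 genes (Col1a2, Col3a1 and Acta2), and not all genes followed it. Col1a2, a collagen gene, measured 3761 and 4091 in Bt/Bl, 4342 and 2335 in Bl, 6859 and 8115.5 in Bt, and 10335 and 7546 in GF, and Col3a1 had the same separation. Acta2 averaged 3580.35 in Bt/Bl, 4101 in Bl, 8587.5 in Bt and 4205 in GF, so it was high in Bt alone, and Dcn averaged 695 in Bt/Bl, 1129 in Bl, 587 in Bt and 1214.5 in GF, lowest in Bt. In this list 0 of 8 tested genes were called by limma in any of the 5 comparisons, where 0.0442% to 0.197% of all tested probe sets were. Lum and Tagln were near or under the floor on several GeneChips. The summed signal of 5 plasma cell markers was 149328 and 136105 in Bt/Bl, 96959 and 103038 in Bl, 107377 and 91063 in Bt, and 214702 and 198012 in GF, an order unlike that of Mt1 or Mt2. Against GF, 1 of its 5 tested genes was called lower in Bt/Bl (Igha), 1 in Bl (Igha) and 2 in Bt (Igha and Jchain). Of all tested probe sets, 0.197%, 0.137% and 0.169% were called in these comparisons.

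The goblet cell list also moved. Its summed signal over 7 genes was 776850.0 and 846100.0 in Bt/Bl, 1283119 and 1004254 in Bl, 1068345 and 1113128 in Bt, and 969193 and 818186 in GF. The Bt/Bl sums were below all Bl and Bt sums and overlapped those of GF. Most of the sum came from Zg16, at 517095 and 569259 in Bt/Bl against 653866 and 521292 in GF, and not all genes followed it. Clca1 was high in Bl alone, at 85225 and 78138, whereas Agr2 was lowest in Bl, at 14846 and 16774. Muc2, the main mucin of goblet cells, measured 33935 and 38645 in Bt/Bl, 59457.5 and 37734 in Bl, 89920.5 and 81136 in Bt, and 28272 and 30154 in GF. It was highest in Bt, as Mt1 and Mt2 were, but lowest in GF rather than in Bt/Bl, and it was called between Bt and GF (log2 difference 1.55, SE 0.24, adjusted p = 0.0079). Clca1 was called higher in Bl than in GF, and no goblet cell gene was called in the 3 other comparisons. Of 4 tested Paneth cell genes, Ang4, Itln1 and Reg3g were called in 1 or more comparisons. Against GF, Ang4 and Itln1 were called higher in Bl, and Reg3g lower in Bl and higher in Bt. Ang4 was also called higher, and Reg3g lower, in Bl than in Bt and in Bt/Bl. Beside these lists, 0.0442% to 0.197% of all tested probe sets were called per comparison. The Paneth cell sums were 38647 and 36121 in Bt/Bl, 62833 and 59318 in Bl, 51856 and 35106 in Bt, and 29262 and 25567 in GF, highest in Bl. Most of the Bl sums came from Ang4, at 46895 and 40107 in Bl against 3818 to 9287 in the other pools. Lyz1 and Reg3g were instead lowest in Bl, at 8081 and 5773 for Lyz1 and 152 and 33.6 for Reg3g. The macrophage sums were 29847 and 29894 in Bt/Bl, 22523 and 17679 in Bl, 31344 and 25940.0 in Bt, and 21885 and 21104 in GF, with 0 of 7 tested genes called, and the T cell sums were at most 3313 on any GeneChip. The part of these cells in the metallothionein differences was not tested, and in pooled tissue fewer cells of a type and less RNA per cell cannot be told apart.

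Among epithelial transcripts, Epcam, a surface protein of epithelial cells, measured 31526 and 29940.5 in Bt/Bl, 19029 and 30528 in Bl, 20034.7 and 15170.3 in Bt, and 26022 and 34403 in GF. Like Slc30a1, it was low in both Bt GeneChips and in Bl 9134. The E-cadherin gene Cdh1 measured 43896 and 33764 in Bt/Bl, 20374 and 40972 in Bl, 24617 and 24906 in Bt, and 33557 and 49926 in GF, with the same GeneChips low. These were chosen from 8 epithelial markers after their values were seen. Vil1, Krt8, Krt19, Krt20 and Cdx2 did not share this order, and Krt18 averaged 25469 in Bt and 16925 in GF. The list's median log2 difference between Bt and GF was -0.10 beside 0.00433 over all genes tested. By limma 0 of the 8 were called in the 5 comparisons, where 0.0442% to 0.197% of all tested probe sets were. Whether these transcripts and Slc30a1 moved for a common reason was not tested.

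**Figure D5:**
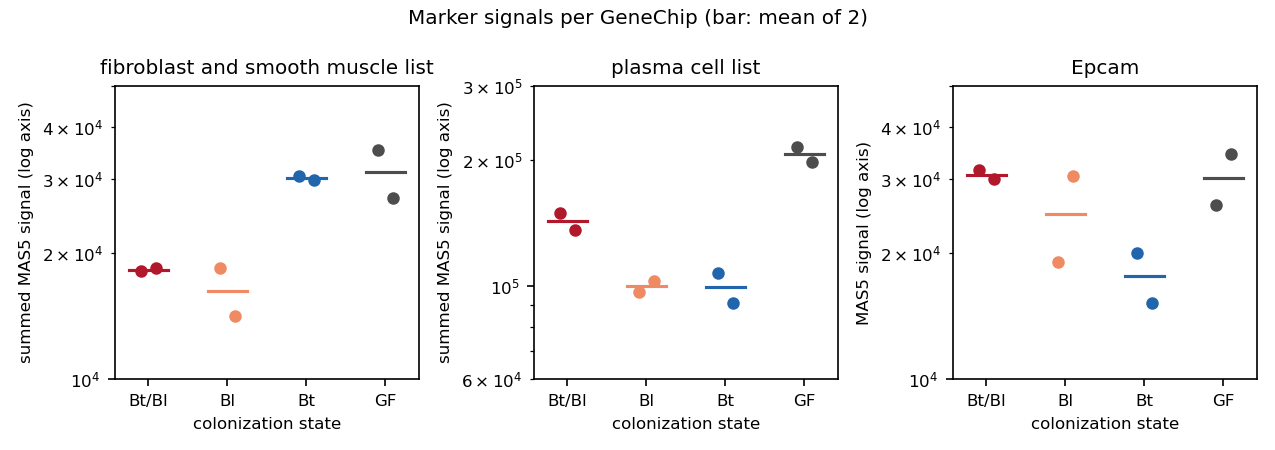
Summed MAS5 signal (log axis) of the fibroblast and smooth muscle list and of the plasma cell list, and the Epcam signal (log axis), on each GeneChip of the Bt/Bl, Bl, Bt and GF pools; bars are the mean of 2. The fibroblast and smooth muscle sums are 18078 and 18428 in Bt/Bl against 35206 and 27054 in GF. Epcam has its lowest mean in Bt, at 20034.7 and 15170.3, and Bl 9134 lies between these at 19029.

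The transcripts whose log2 signal over the 8 GeneChips was most like the mean of Mt1 and Mt2, among 20643 named probe sets and with metallothioneins left out, were Mplkip, E130309D02Rik, Gja1, Rnf217 and Pdxdc1 (Pearson r from 0.956 to 0.963). Gja1, which encodes the gap junction protein connexin 43, measured 593 and 470 in Bt/Bl, 771 and 875 in Bl, 1706.5 and 1301 in Bt, and 942 and 1149 in GF. Its order, lowest in Bt/Bl and highest in Bt, follows from its being chosen for likeness to the metallothioneins. Those most like Slc39a4 were Krr1, Plet1os and Auts2 (r from 0.955 to 0.976), and those most like Slc30a10 were Ptgr1, Rcor1 and Arhgap5 (r from 0.980 to 0.987). All 6 of these were at their lowest in Bl 9134, as Slc39a4 and Slc30a10 were, which also follows from the choice. These are correlations over 4 pools in duplicate and carry no test.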

How the data were processed

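Signals of 8 Mouse 430 2.0 GeneChips, 2 per colonization state, were used as deposited. The authors made these intensity values with MAS5, on a linear scale, and every GeneChip had the same trimmed mean. They analysed them further with other software, of which no values were used. Custom GeneChips of the same pools name none of the 6 genes and were not used.

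Probe sets were named from GEO's platform annotation, with symbols updated through RefSeq (GRCm38.p6): 34958 have 1 symbol, 932 several and 9211 none. Signals under the 25th percentile (144.7) were raised to it before log2 transformation. Testing was limited to the 24865 probe sets with duplicates above the median signal (583.1) in 1 state or more, after 64 control probe sets had been left out. All 8 GeneChips were fitted together with limma 3.58.1 (lmFit, eBayes with intensity trend, R 4.3.3), with 4 residual degrees of freedom, and p-values were adjusted by Benjamini-Hochberg over all tested probe sets at a threshold of 0.05. The fit was tested on simulated data. Duplicates are amplifications of 1 pool, so p-values measure technical spread only.

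Named genes were all member probe sets, called genes of the zinc, MTF-1, copper, iron and manganese, NRF2, glucocorticoid and heat shock lists (at most 4 a list), and the 5 or 3 probe sets most alike in pattern; Mt4, Slc30a4 and the cell type markers that are named were chosen after their values were seen. The members and lists were chosen with earlier results of these data known. Alternatives covered the floor, filter, scaling, trend, samples in the fit, the methods' fold change and signal criteria, other probe sets and each GeneChip left out.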

Additional observations from a re-analysis of the deposited data

Results flagged for a closer look

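For Mt1 and Mt2 the GeneChips of the pools with B. thetaiotaomicron lay on opposite sides of those without it, depending on whether B. longum was present, although no single arm of this passed the test. For Mt1, both Bt/Bl GeneChips were below both Bl GeneChips, whereas both Bt GeneChips were above both GF GeneChips, and the difference between the differences was -2.19 on the log2 scale. For Mt2 the same held for the single GeneChips, with -1.28, although the arm between Bt and GF was small (0.32, with a 95% interval from -0.16 to 0.79). The value for Mt2 was -0.78 with median scaling and -1.56 with quantile normalization, and that for Mt1 was -1.69 with median scaling and -0.43 on its dim probe set. The difference was not tested, because it contains the difference by which the genes were chosen. Outlying samples were not looked for, since each state had 2 GeneChips.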

How the results depend on the processing

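No paired analysis was possible because each state was its own pool of 4 mice, and nothing links the GeneChips of different states. The count of member probe sets called between Bt/Bl and GF, 1 here, was 0 without the filter, with median scaling, without the intensity trend and with only the GeneChips compared, and 0 to 1 when a GeneChip was left out. In the other 4 comparisons it was 0 under all alternatives run. Over all tested probe sets the counts varied far more, so the background shares given beside the member counts depend on the processing: 49 between Bt/Bl and GF (0 to 52 under the alternatives), 34 between Bl and GF (0 to 717), 42 between Bt and GF (0 to 373), 14 between Bt/Bl and Bl (2 to 785), 12 between Bt/Bl and Bt (0 to 348) and 11 between Bl and Bt (2 to 643), with 28 for the excess (0 to 522). The highest counts came without Bl 9135 in each comparison with Bl and in the excess, and without Bt 9130 between Bt and GF and between Bt/Bl and Bt. Median scaling moved the median of all tested probe sets to -0.32 between Bl and GF. As deposited, the median signal was 759 in Bl 9134 and 474.9 to 653.8 on the other GeneChips, at the same trimmed mean. The Mt2 difference between Bt/Bl and Bt ran from -2.10 to -1.73 with a GeneChip left out, and that of Mt1 turned to 0.94 on its dim probe set, which also gave 1.01 for Bt/Bl against GF and 1.29 for Bl against Bt. Between Bl and GF, Mt1 turned to -0.074 with median scaling and ran from -0.067 to 0.61 with a GeneChip left out (lowest without Bl 9134), and Slc30a1 turned to -0.29 with median scaling and ran from -0.37 (without Bl 9135) to 0.49, with -0.09 without GF 9128. Between Bt/Bl and Bl, Slc30a1 ran from -0.057 (without Bl 9134) to 0.80. The cause was not tested. Probe sets near the floor, such as the dim Mt1 one, limit what their differences show.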
